A study of Mus musculus with 4 samples.

Results

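The genes described here carry iron out of cells, bring it in, store it, free it from haem and sense its level in the cell. They were picked by symbol as a list of 10 genes (Slc40a1, Tfrc, Slc11a1, Slc11a2, Fth1, Ftl1, Hmox1, Cp, Ireb2 and Aco1), and each was to be read from its brightest probe set, by mean over the 4 arrays, among those annotated to that symbol alone. Of the 10 listed genes, 9 had such a probe set, out of 22180 genes named on the array. Each of these 9 had 1 probe set, so brightness chose nothing among them, and all 9 passed the intensity filter that left 13308 genes for testing. Ftl1 had no probe set of its own and is described from shared probe sets. The list was drawn up with earlier results of these data known, among them the lower level of Slc40a1 in the transgenic muscle. The difference of Slc40a1 is therefore given as a description with no p-value, and it is used to support nothing.

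Total RNA of the quadriceps, the large muscle at the front of the thigh, was measured in 4 mice with 1 whole-transcript Affymetrix array per mouse. The dbTg group held 2 NF90-NF45 double transgenic mice, a male (replicate 1) and a female (replicate 2), both 16 weeks old. The WT group held 2 wild-type mice, a male aged 17 to 18 weeks (replicate 1) and a female aged 16 weeks (replicate 2). NF90 and NF45 are proteins that bind double-stranded RNA as a complex. Ilf2, the gene of NF45, read 10.36 and 10.16 in dbTg and 5.03 and 5.04 in WT on the log2 scale. The sources used here name neither the promoter that drives the transgenes nor the strain. Genes that define muscle fibres were bright on every array, with the myosin gene Myh4 at 11.15 and 11.04 in dbTg and 11.10 and 11.10 in WT, and Acta1, the skeletal actin gene, at 11.16 and 11.06 in dbTg and 11.02 and 11.05 in WT. Levels are RMA values on the log2 scale, and levels of different probe sets are not compared with each other. Sums over a list add the linear levels of its probe sets, are compared between arrays only, and follow its brightest genes most.

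Iron enters most cells as transferrin that binds the transferrin receptor, and the metal then crosses the endosomal membrane through a divalent metal transporter. What the cell does not use is held inside ferritin shells built of heavy and light chains, or leaves through ferroportin, the exporter known in vertebrates, with a copper oxidase such as ceruloplasmin turning the iron to the form that transferrin carries. When iron is scarce, the iron regulatory proteins bind hairpins in the messengers of these genes, which blocks translation of ferritin and ferroportin and protects the messenger of the transferrin receptor from decay. Muscle holds much of its iron in myoglobin and in mitochondrial proteins, and macrophages of the tissue take up and release the iron of dead cells.

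Sequence of the start region was available for 7 of the 10 listed genes, in 10 windows that run from 250 bases before to 50 bases after an annotated start (RefSeq, build GRCm38.p6). Slc40a1, Slc11a2 and Hmox1 had no window. Windows of 2 genes are printed here on the strand of the gene. The first is that of Slc11a1, the gene of the list that rose, at chr1:74374953-74375252 on the plus strand. The other is 1 of the 2 windows of Tfrc, the uptake gene whose arrays did not overlap between genotypes, at chr16:32608872-32609171 on the plus strand. Capitals mark the short motifs found.
Slc11a1: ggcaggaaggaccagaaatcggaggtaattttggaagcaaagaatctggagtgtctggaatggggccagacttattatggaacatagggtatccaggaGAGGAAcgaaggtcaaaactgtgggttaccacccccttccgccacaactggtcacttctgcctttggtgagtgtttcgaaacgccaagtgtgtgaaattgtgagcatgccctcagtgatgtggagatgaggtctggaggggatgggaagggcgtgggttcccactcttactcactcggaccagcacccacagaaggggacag
Tfrc: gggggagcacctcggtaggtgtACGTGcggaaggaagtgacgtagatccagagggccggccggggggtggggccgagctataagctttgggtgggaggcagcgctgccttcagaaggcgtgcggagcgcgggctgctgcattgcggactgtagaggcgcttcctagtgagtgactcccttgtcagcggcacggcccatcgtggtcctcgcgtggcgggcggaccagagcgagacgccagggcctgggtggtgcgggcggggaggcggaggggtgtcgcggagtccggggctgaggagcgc
In the window of Slc11a1 the capitals mark GAGGAA, a core of the sites of PU.1, a transcription factor of macrophages. In that of Tfrc they mark ACGTG, the core of the sites of hypoxia-inducible factors. On either strand, GAGGAA stood in 28.3% of 32851 windows of the same length and ACGTG in 19.6%. Among the listed genes with a window, GAGGAA was found in Slc11a1 and Ireb2 and ACGTG in Tfrc. The letters TGACNNNGC, a core of the antioxidant response element, were in 12.4% of all windows and in 0 of the 10 windows of the listed genes. The start regions of Slc40a1, Slc11a2 and Hmox1 could not be searched, and 0 of so few windows is not read as a lack. These are matches of letters and show no binding. The searched motifs did not overlap each other in the printed windows.

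The exporter gene Slc40a1 read lower in dbTg muscle, by -1.78 on the log2 scale, a value given without a test. Among the 8 genes other than Slc40a1, the phagocyte transporter gene Slc11a1 rose by 1.31 and the other 7 were not called. The limma fit over all 13308 genes thus called 1 of the 8, where it called 2.21% of all tested genes (2.01% higher and 0.203% lower). Differences of at least 1.5-fold in every one of the 4 pairs of a dbTg and a WT array were found for 1 of the 8, Slc11a1 again, where 6.46% of tested genes had them (5.63% higher and 0.834% lower). Positive differences were found for 7 of the 8 genes, with a median of 0.29, against 60.5% of all tested genes and a median of 0.09. The arrays of the genotypes did not overlap for 4 of the 8 genes, all 4 higher in dbTg. Over the whole table, 50% of tested genes had no overlap (33.7% higher and 16.3% lower), so the share of the 8 without overlap, in either direction, equals the background.

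**Figure D1:**
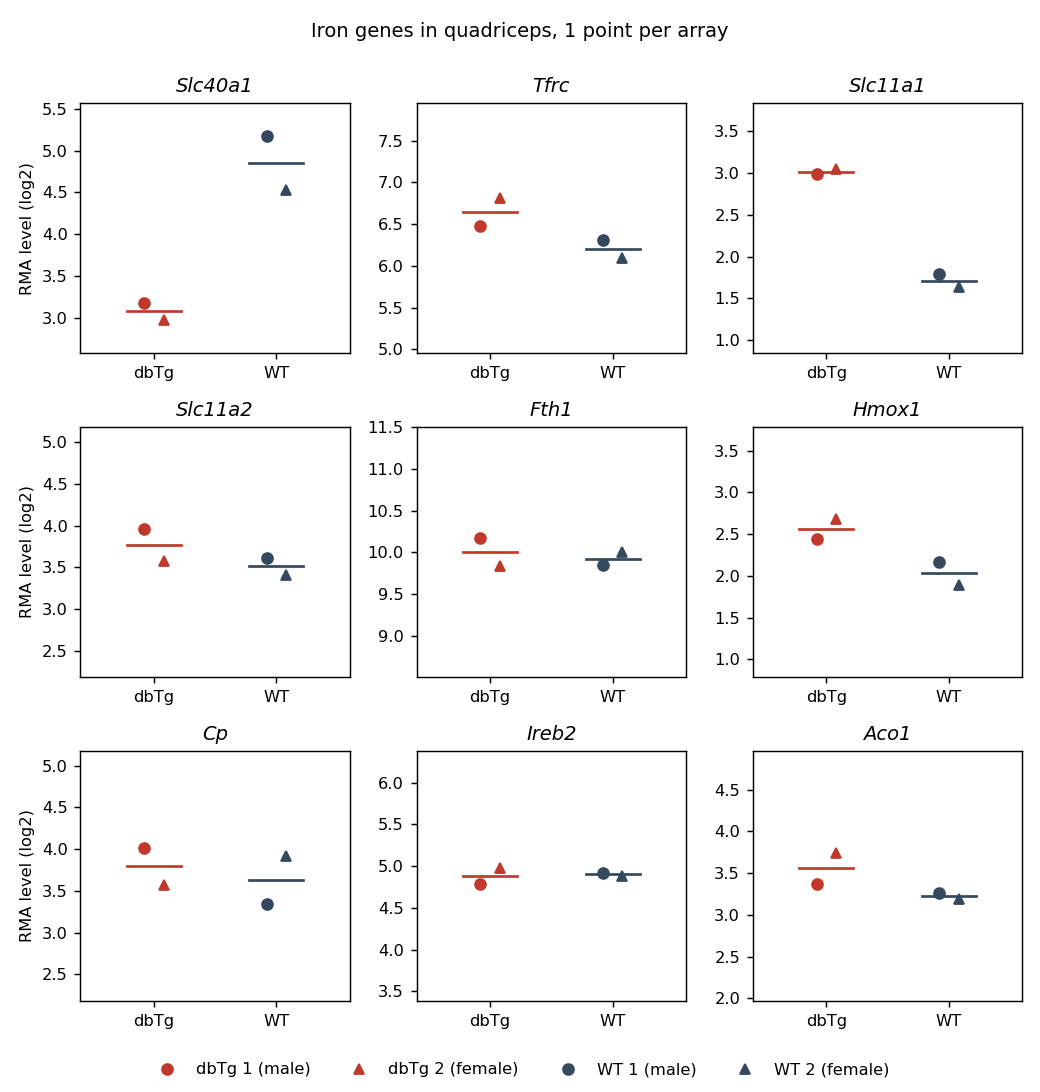
RMA level (log2) of the 9 iron genes with a probe set of their own, 1 point per array, with dbTg left of WT in each panel. Circles are males (replicate 1), triangles are females (replicate 2), bars are group means, and every panel spans 3 log2 units. The dbTg arrays lie below the WT arrays for Slc40a1 and above them for Slc11a1, Tfrc, Hmox1 and Aco1, and the groups overlap for Slc11a2, Fth1, Cp and Ireb2.

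Slc40a1 encodes ferroportin, through which iron leaves macrophages, gut cells and other cells. It read 3.18 and 2.97 on the dbTg arrays and 5.17 and 4.53 on the WT arrays. Both dbTg arrays were below both WT arrays, with the pairs of arrays between -2.20 and -1.35 apart. The group means were 3.07 ± 0.14 in dbTg and 4.85 ± 0.46 in WT (SD, n = 2 each), which makes WT 3.42-fold higher. The larger spread lay in WT, where the male was above the female. Within the males the difference was -1.998 and within the females -1.55. Of the 13308 tested genes, 2 had a difference this low or lower, Slc40a1 included. This rank is a description and no test, since the lower level was known when the list was made. Leaving out 1 array at a time kept the difference between -2.10 and -1.45.

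Slc11a1, also known as Nramp1, encodes a metal transporter of the phagosome membrane of macrophages and neutrophils. It read 2.99 and 3.05 on the dbTg arrays and 1.79 and 1.63 on the WT arrays. Both dbTg arrays were above both WT arrays. The WT readings were close to the filter value of 1.48 and to the medians of all probe sets on those arrays (1.603 and 1.583), and without detection calls the WT level is not shown to lie above background. The means were 3.02 ± 0.04 in dbTg and 1.71 ± 0.11 in WT (SD, n = 2 each). The gene rose in dbTg (log2 difference 1.31, SE 0.21, 95% interval 0.82 to 1.80, limma adjusted p = 0.0357), by 1.20 in the males and 1.41 in the females. Its size stayed between 1.21 and 1.38 under every alternative run. Its call ended under 4 of the 12 alternatives, among them without dbTg replicate 1 (adjusted p = 0.218), without dbTg replicate 2 (0.307) and after quantile normalization (0.0596), and its adjusted p ranged over all alternatives run from 0.0201 to 0.307.

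Markers of macrophages and leukocytes were higher in the same muscles. Of 16 tested, 8 rose and 0 fell, with a median difference of 1.74, where 2.01% of all tested genes were called higher. Their summed level on the linear scale was 689 and 597 in dbTg and 124 and 112 in WT. Ctss, which encodes the lysosomal protease cathepsin S, read 7.23 and 7.35 in dbTg and 2.93 and 3.19 in WT. Lyz2, the lysozyme of myeloid cells, read 7.93 and 7.33 in dbTg and 5.24 and 5.38 in WT. The part of these cells in the rise of Slc11a1 was not tested. In whole muscle, a change in the number of cells of a type and a change in RNA per cell cannot be told apart.

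Macrophages that recycle iron, such as those of spleen and liver, are known for high Slc40a1. Of 7 tested markers of tissue-resident macrophages, 2 rose, the mannose receptor gene Mrc1 by 1.83 (adjusted p = 0.0274) and the folate receptor gene Folr2 by 1.49 (adjusted p = 0.0265), and 0 fell. All 7 had positive differences, with a median of 0.93, where 60.5% of all tested genes were positive. The marker below the filter, Vsig4, had a negative difference (-0.32). The summed linear level of the list, with Vsig4 included, was 233 and 162 in dbTg and 123 and 83.1 in WT. The reductase gene Cbr2 read 5.77 and 5.12 in dbTg and 5.599 and 3.07 in WT, so its groups overlapped. The groups also overlapped for Cd163 and Lyve1, which differed by 0.69 and 0.12. Slc40a1 thus lay on the other side of 0 from the 7 tested markers. Endothelial markers had differences of the same sign as Slc40a1. Of 12 tested, 0 were called and 12 had negative differences (5 of them with an unadjusted p under 0.05), with a median of -0.45. Their summed linear level was 220 and 265 in dbTg and 359 and 395 in WT. Cldn5, 1 of the 12, had a dbTg mean of 1.44, under the filter value, and passed the filter through its WT mean of 2.02. Cdh5, the cadherin of endothelial junctions, read 6.002 and 6.50 in dbTg and 7.20 and 6.996 in WT, and the adhesion gene Pecam1 read 5.21 and 5.28 in dbTg and 5.41 and 5.86 in WT. The part of either cell type in the level of Slc40a1 was not tested.

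**Figure D2:**
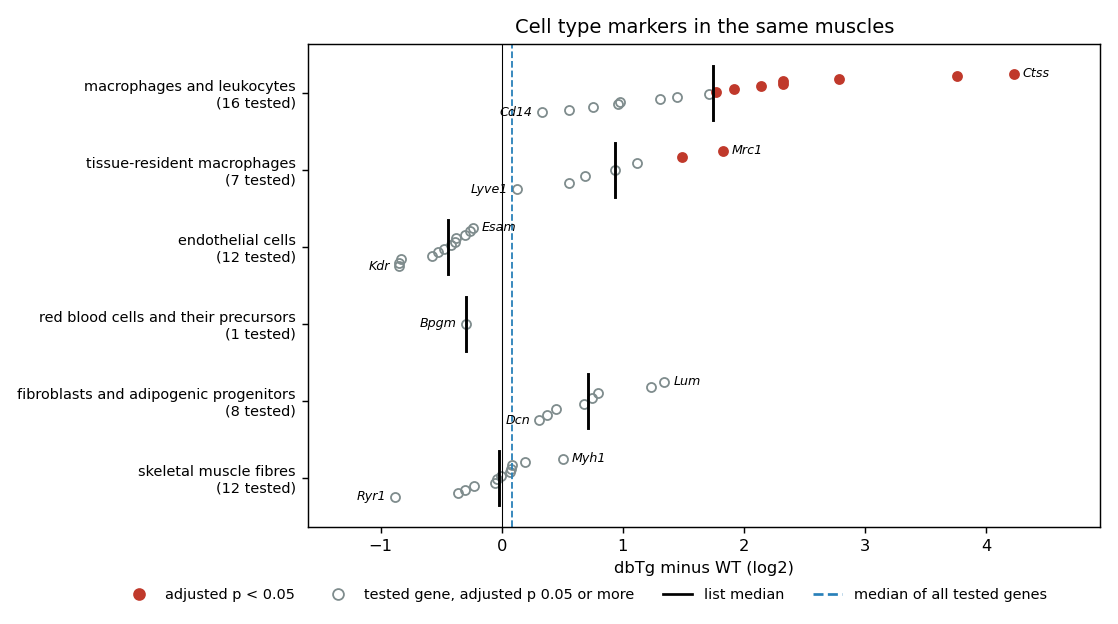
Difference of each tested cell type marker (dbTg minus WT, log2), 1 point per gene in 6 lists, with the list median as a black bar and the median of all tested genes as a dashed line. Filled points, genes past an adjusted p of 0.05, appear among the macrophage lists only, and all 12 endothelial markers lie below 0.

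Among the other cell types, the fibroblast and progenitor markers had 0 of 8 called and a median of 0.71, with 5 higher at an unadjusted p under 0.05. Dcn, a proteoglycan gene of the matrix, read 9.32 and 9.53 in dbTg and 9.23 and 8.99 in WT, and the matrix gene Dpt read 7.62 and 7.65 in dbTg and 6.95 and 6.83 in WT. Muscle fibre genes had 0 of 12 called and a median of -0.02, with 1 gene up and 1 down at an unadjusted p under 0.05. Their summed linear level was 14689 and 13720 in dbTg and 13857 and 14991 in WT. Of the 12 red cell symbols searched, 4 were named on the array and Bpgm alone was tested, with 4.46 and 4.17 in dbTg and 4.76 and 4.48 in WT. The globin genes searched had no probe set of their own, so blood left in the muscle was not measured by them.

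Tfrc encodes the transferrin receptor that takes up iron-loaded transferrin. It read 6.48 and 6.81 in dbTg and 6.31 and 6.09 in WT, so both dbTg arrays were above both WT arrays, by as little as 0.17. The means were 6.65 ± 0.24 in dbTg and 6.20 ± 0.16 in WT (SD, n = 2 each). The difference of 0.45 (SE 0.19, 95% interval 0.0043 to 0.89) was not called (adjusted p = 0.263). It was 0.17 in the males and 0.72 in the females.

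Slc11a2 encodes DMT1, the divalent metal transporter that moves iron out of endosomes. It read 3.95 and 3.57 in dbTg and 3.61 and 3.41 in WT. The groups overlapped, since the dbTg female lay below the WT male. The difference was 0.25 (SE 0.23, 95% interval -0.30 to 0.80, adjusted p = 0.618), and 0.04 after quantile normalization. Slc11a2 and Slc11a1 belong to the same transporter family, and only Slc11a1 was called. Whether their differences differ from each other was not tested.

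Fth1 encodes the heavy chain of ferritin, which oxidises iron as it enters the shell. It read 10.18 and 9.83 in dbTg and 9.85 and 10.001 in WT. The groups overlapped, with the dbTg male highest and the dbTg female lowest of the 4 arrays. The difference was 0.08 (SE 0.15, 95% interval -0.28 to 0.43, adjusted p = 0.829), and the interval allows at most a 1.35-fold higher level in dbTg.

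Ftl1 encodes the light chain of ferritin, which helps the iron core to form. The array held 6 probe sets annotated to Ftl1 together with the ferritin light chain pseudogene Ftl1-ps2 and in some cases Ftl2-ps, and none to Ftl1 alone. Their signal cannot be assigned to Ftl1, since near-identical copies share it, so they were not tested. Of the 6, 2 carried identical values, which read 6.83 and 6.83 in dbTg and 6.03 and 5.67 in WT, a difference of 0.98. Another probe set with the same 3 symbols read 6.59 and 6.65 in dbTg and 6.02 and 5.32 in WT, a difference of 0.95. On these 3 probe sets both dbTg arrays were above both WT arrays, as on 4 of the 6 in all, with both identical probe sets counted. Over all tested genes, 33.7% had no overlap and were higher in dbTg. The other 3 probe sets differed by 0.68, 0.15 and 0.12. The first of these read 3.13 and 2.11 in dbTg and 2.44 and 1.44 in WT, with the males above the females in both genotypes. The shared light chain signal was thus higher in dbTg on the bright probe sets, by values that stand here without a test.

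**Figure D3:**
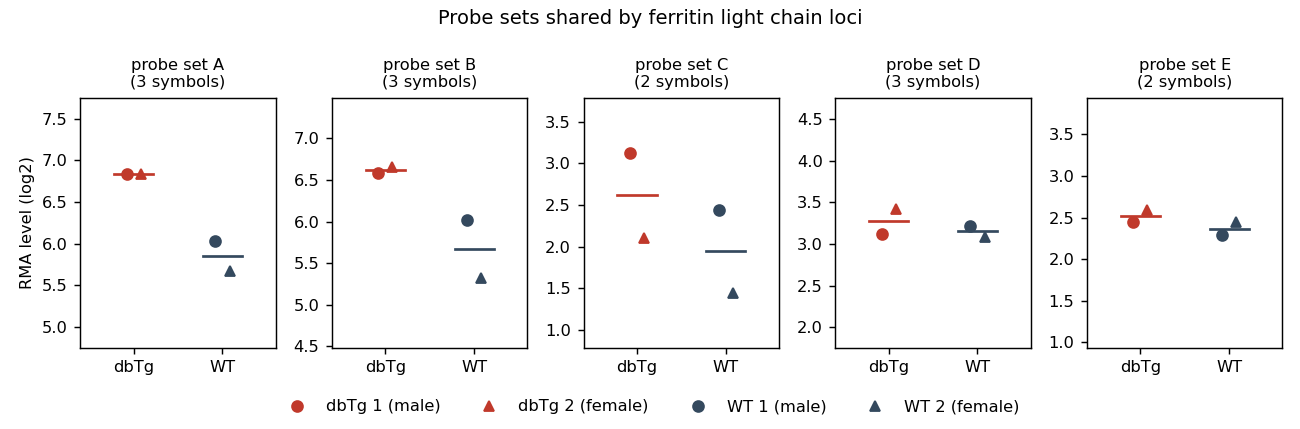
RMA level (log2) of the 5 distinct sets of values among the 6 probe sets shared by ferritin light chain loci, ordered by level in dbTg 1, with dbTg left of WT. Circles are males, triangles are females and bars are group means. Probe sets A (the pair with identical values) and B lie higher in dbTg, by 0.98 and 0.95, and D and E differ by 0.12 and 0.15.

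Cp encodes ceruloplasmin, a copper oxidase that works with ferroportin. It read 4.02 and 3.57 in dbTg and 3.34 and 3.92 in WT. The highest array was the dbTg male and the lowest the WT male, so the groups overlapped. The difference of 0.16 (SE 0.28, 95% interval -0.50 to 0.83, adjusted p = 0.807) changed sign with the array left out and after quantile normalization.

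Hmox1 encodes the inducible haem oxygenase, which frees iron from haem. It read 2.44 and 2.68 in dbTg and 2.17 and 1.89 in WT, so both dbTg arrays were above both WT arrays. The means were 2.56 ± 0.17 in dbTg and 2.03 ± 0.20 in WT (SD, n = 2 each). The difference of 0.53 (SE 0.23, 95% interval -0.0041 to 1.07) was not called (adjusted p = 0.27). It stayed between 0.39 and 0.67 under every alternative run.

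Neither gene of the iron sensors was called. Aco1 encodes IRP1, which is a cytosolic aconitase when iron is plentiful and an RNA-binding protein when it is scarce. It read 3.37 and 3.74 in dbTg and 3.26 and 3.19 in WT, with no overlap and a smallest gap of 0.11. Its difference was 0.33 (SE 0.23, 95% interval -0.21 to 0.87, adjusted p = 0.493), and 0.12 after quantile normalization. Ireb2 encodes IRP2, which is degraded when iron is plentiful. It read 4.79 and 4.98 in dbTg and 4.92 and 4.89 in WT. Its WT arrays lay between its dbTg arrays, and the difference was -0.02 (SE 0.18, 95% interval -0.45 to 0.41, adjusted p = 0.968). These are RNA levels, and the binding activity of either protein was not measured.

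**Figure D4:**
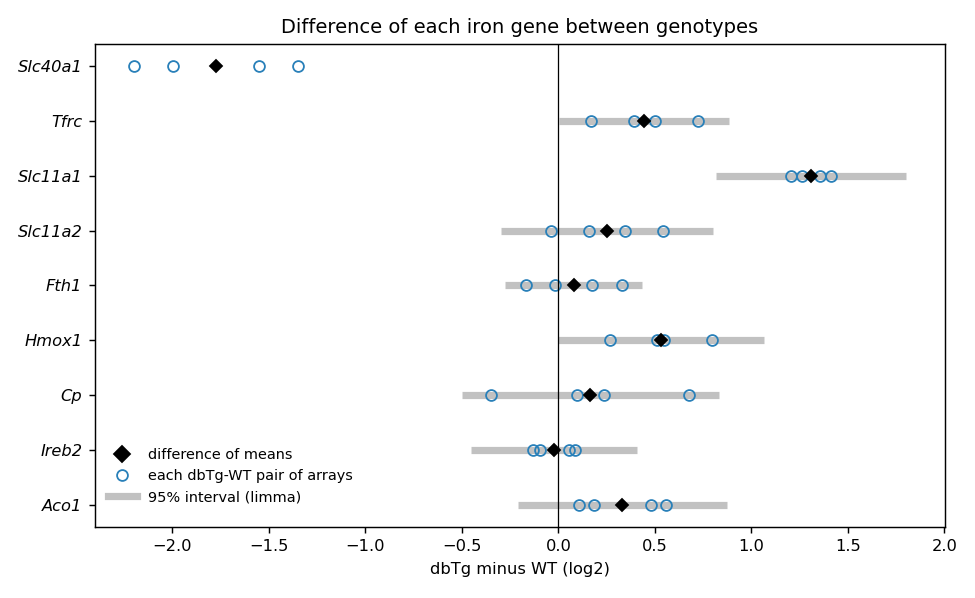
Difference (dbTg minus WT, log2) of the 9 iron genes: diamonds are differences of group means, open circles the 4 pairs of arrays and grey bars the 95% interval from limma, drawn for the 8 genes other than Slc40a1. All pairs lie below -1.3 for Slc40a1 and above 1.2 for Slc11a1, and the intervals of Slc11a2, Fth1, Hmox1, Cp, Ireb2 and Aco1 include 0.

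The rest of the iron and haem pathway was read from 8 further lists of 98 symbols, older names included, of which 85 were named on the array and 72 were tested. The fit called 0 of the 72 genes, where it called 2.21% of all tested genes. Unadjusted p-values under 0.05 were found for 7 higher and 4 lower genes, or 15.3% of the 72, against 18.7% of all tested genes. Their median difference was 0.07, against 0.09 for all tested genes, and 40 were positive and 32 negative.

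Other export and copper genes had 4 tested, all positive, with a median of 0.38 and 0 called. App, the amyloid precursor protein gene, read 6.99 and 6.96 in dbTg and 6.34 and 6.29 in WT (adjusted p = 0.0778). Hephl1, a relative of the copper oxidase hephaestin, read 1.80 and 1.93 in dbTg and 1.32 and 1.53 in WT (adjusted p = 0.268). Other uptake genes had 9 tested, 6 of them positive, with a median of 0.29 and 0 called. Slc39a14, the metal transporter ZIP14, read 4.07 and 3.89 in dbTg and 2.99 and 3.06 in WT (adjusted p = 0.0739). Lrp1, the endocytic receptor for haem bound to haemopexin, read 5.70 and 5.63 in dbTg and 4.55 and 4.97 in WT (adjusted p = 0.0797, with a range of 0.02 to 0.445 over the alternatives, the lowest without WT replicate 2). Both dbTg arrays were at least 1.5-fold above both WT arrays for App, Slc39a14 and Lrp1, and for Erfe and Hp, described below. These were 5 of the 72 other iron genes, and 0 were that far below. Over all tested genes, the shares were 5.63% higher and 0.834% lower.

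Other storage genes and iron chaperones had 5 tested, with a median of -0.07 and 0 called. The largest difference was 0.28, in the chaperone family gene Pcbp3 (adjusted p = 0.485), and the related Pcbp4 differed by 0.22 (adjusted p = 0.6). Systemic regulators had 11 tested, 3 positive and 8 negative, with a median of -0.31 and 0 called. Erfe, the hormone gene erythroferrone, read 2.98 and 2.9999 in dbTg and 2.24 and 2.23 in WT (adjusted p = 0.116). Epas1, the hypoxia factor HIF2-alpha, read 5.40 and 5.42 in dbTg and 5.84 and 6.40 in WT (adjusted p = 0.15, with a range of 0.0258 to 0.548 over the alternatives, the lowest without WT replicate 1). Epas1 is also known from endothelial cells, whose 12 tested markers had negative differences with 0 called. The part of these cells in the level of Epas1 was not tested.

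Haem synthesis had 9 genes tested, with a median of -0.03 and 0 called. Abcb10, a mitochondrial transporter needed for haem synthesis, differed by -0.53 (adjusted p = 0.268), and the synthesis enzyme gene Cpox by 0.40 (adjusted p = 0.303). Haem breakdown and transport had 9 tested, 7 of them positive, with a median of 0.22 and 0 called. Hp, haptoglobin, which binds free haemoglobin, read 5.28 and 3.73 in dbTg and 2.17 and 1.85 in WT. Its difference of 2.49 (SE 0.48, adjusted p = 0.0549) was the largest of the 72 genes, and the dbTg male was higher than the dbTg female. It passed the threshold without WT replicate 1 (adjusted p = 0.025) and without WT replicate 2 (0.0385), and missed it without either dbTg array, with a range of 0.025 to 0.188 over the alternatives. The biliverdin reductase gene Blvrb differed by 0.33 (adjusted p = 0.408).

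Mitochondrial iron and iron-sulphur genes had 15 tested, with a median of 0.18 and 0 called. Ciao1, of the cytosolic assembly of iron-sulphur proteins, differed by 0.63 (adjusted p = 0.116), and Isca1, of the mitochondrial assembly, by -0.44 (adjusted p = 0.176). Targets and regulators of Nrf2 and Bach1, the transcription factors known to turn Hmox1, the ferritin genes and Slc40a1 on and off, had 10 tested, with a median of -0.11, 0 called and 0 at an unadjusted p under 0.05. The oxidative stress genes Osgin1 and Nqo1 differed by -0.42 (adjusted p = 0.35) and -0.37 (adjusted p = 0.422).

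**Figure D5:**
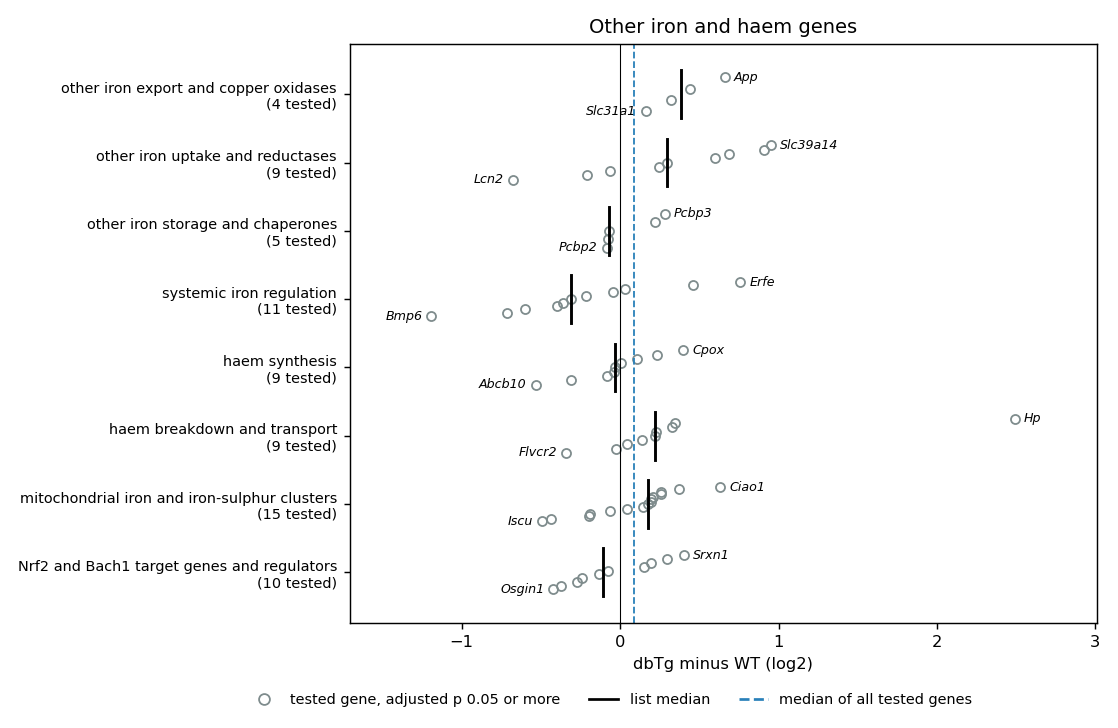
Difference of each tested gene of the 8 other iron and haem lists (dbTg minus WT, log2), 1 point per gene, with the lowest and highest gene of each list named, list medians as black bars and the median of all tested genes as a dashed line. None of the 72 genes passed an adjusted p of 0.05, and Hp, at 2.49, stands apart from the others.

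The genes whose values over the 4 arrays were most like those of Slc40a1, by Euclidean distance after each gene was centred on its own mean, were Gpcpd1, Chac1, Mylk2, Npc1 and Mstn (distances 0.46 to 0.53, among 12147 candidates). Gpcpd1, a phosphodiesterase gene of choline lipids, read 7.55 and 7.64 in dbTg and 9.28 and 8.63 in WT. Npc1, a cholesterol transporter of lysosomes, read 5.31 and 4.87 in dbTg and 6.65 and 6.13 in WT. As in Slc40a1, the WT male was the highest array in all 5 of them. The choice by likeness over these same arrays favours this, so it is no separate result. The genes most like Slc11a1 were Aoc3, Pik3ap1, Galnt7, Coro1b and Aif1l (distances 0.04 to 0.10). Pik3ap1, a signalling adaptor gene of B cells and myeloid cells, read 3.80 and 3.91 in dbTg and 2.62 and 2.40 in WT. With 4 arrays in 2 groups, such likeness rests mostly on the difference between genotypes.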

How the data were processed

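Total RNA of quadriceps from 2 dbTg and 2 WT mice was hybridised to 1 array each. Per the submitters' processing notes and the labels, the authors used Affymetrix Expression Console to turn scans into log2 RMA values, which are what was deposited. RMA corrects background, normalizes arrays by quantiles and summarises probe sets. The software version and annotation build are not stated in the sources used here, and no detection calls were used. Array medians over the 41345 probe sets lay between 1.55 and 1.60, while upper quartiles were 2.99 and 2.98 in dbTg and 2.80 and 2.78 in WT. The deposited probe set values thus did not share 1 distribution, and the upper quartiles were higher in dbTg.

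Probe sets with exactly 1 symbol (23521) named genes. A gene was read from its brightest probe set, and a gene was tested if its mean reached the 40th percentile (1.48). This mean was over both genotypes, so a gene near the filter value could pass through its level in 1 genotype. The comparison of dbTg with WT used limma 3.58.1 under R 4.3.3 (lmFit, eBayes with an intensity trend, two-sided, Benjamini-Hochberg adjustment over all 13308 genes, threshold 0.05). SEs and intervals are limma's, and a positive difference means higher in dbTg. The number of arrays limits the precision, and a permutation test of 2 against 2 arrays cannot give a p-value below 0.333.

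The members, lists and tests were chosen with earlier results of these data known. Slc40a1 is left out of the counts of called members. Text names all members, the 2 genes of smallest p in each other iron list (up to 4 where any was called), the 2 brightest markers of each cell type, Ilf2, and the 5 genes most like each member apart by 1.5-fold in every pair. Folr2, Vsig4, Cd163, Lyve1, Timd4, Cldn5, Bmp6 and Lcn2 were named after their values were seen. The fit was tested on simulated data. Alternatives were leaving out each array, a replicate block, median centring, quantile normalization, other filters, the mean of probe sets and other eBayes settings.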

Additional observations from a re-analysis of the deposited data

Results flagged for a closer look

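The sign of the difference was opposite in the male and female pairs for 3 of the 9 iron genes, as it was for 36.4% of all tested genes. Fth1 differed by 0.33 in the male pair and -0.17 in the female pair. Cp differed by 0.68 in the male pair and -0.35 in the female pair. Ireb2 differed by -0.13 in the male pair and 0.088 in the female pair. Each pair is 1 dbTg and 1 WT mouse, so the difference between the sexes was not tested.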

How the results depend on the processing

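The replicate block, other filters, mean of probe sets and other eBayes settings leave the differences of the 9 iron genes as they are. Under these, no sign could change and Slc40a1 could not move. Of 108 differences of the 9 iron genes under 12 alternatives, 98 kept their sign and their side of the threshold (for Slc40a1, given without a test, the value moved by less than 1 SD). This SD was pooled over the genotypes, and leaving out an array cannot move a difference by more than that. For Slc40a1, only median centring and quantile normalization could thus have given another outcome. Slc11a1 lost its call under 4 of them, with 1.34 and 1.28 without dbTg replicates 1 and 2, 1.31 with the replicate block (adjusted p = 0.0932) and 1.21 after quantile normalization. Sign changes were found for Cp (-0.13 without WT replicate 1, -0.06 without dbTg replicate 1, -0.043 after quantile normalization), Fth1 (-0.093 without dbTg replicate 1) and Ireb2 (0.071 without dbTg replicate 1, 0.0104 after median centring). With 1 array left out, Cp ranged over -0.13 to 0.456, Fth1 over -0.093 to 0.251 and Ireb2 over -0.114 to 0.071. The cause was not tested. The number called among the 8 genes other than Slc40a1, 1, was 0 to 1 when 1 array was left out (0 without dbTg replicate 1 and without dbTg replicate 2) and 0 after quantile normalization. The number of the 8 at least 1.5-fold apart in every pair stayed at 1 under every alternative run for this count. Leaving out an array only drops pairs, so Slc11a1 could not lose its place that way. Of the other alternatives run for this count, only median centring and quantile normalization changed its values. Of all tested genes 294 were called, 4 to 766 when 1 array was left out, 127 after quantile normalization and 172 without an intensity filter. Of the 72 other iron genes 0 were called, 0 to 4 when 1 array was left out (Bmp6, Epas1, Hp and Lcn2 without WT replicate 1, and Hp and Lrp1 without WT replicate 2), and 1, Hp, with the filter at the 60th percentile and with robust eBayes. With an array left out, the lone array of a group is assumed to vary like the other group. The median difference of all tested genes was 0.09, 0.12 after median centring and -0.0016 after quantile normalization.

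With the replicate number as a block, 0 of these 8 genes, 0 of the other iron genes and 65 of all tested genes were called. The number is also the sex, and the labels give no shared litter or batch. Deviations from the group means correlated with r of 0.05 across genes between samples of the same number, so the numbers were not taken to pair the samples.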
